A study of Mus musculus with 5 samples.

Results

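Transcripts of 9 CXC chemokine ligands, Cxcl1, Cxcl2, Cxcl3, Cxcl9, Cxcl10, Cxcl12, Cxcl13, Cxcl14 and Cxcl16, were described in dendritic cells of the mouse thymus. They were taken by gene symbol from a count table of 18051 rows, and all 9 had a row. Mice studied on day 4 after irradiation of the total body (TBI) gave 3 libraries, and untreated mice gave 2. Both groups were C57BL/6J mice aged 6 to 8 weeks. Their thymi were pooled, digested with DNase and collagenase II, and sorted by fluorescence for CD45, MHC class II and CD11c. This gate does not separate dendritic cells from macrophages that carry the same surface molecules. The radiation dose is not given in the sources used here, and nothing states whether each replicate was a pool of its own, so p-values measure the spread between these libraries, which may be technical.

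Chemokines are small secreted proteins that steer cell migration through G protein-coupled receptors, and the CXC family is named for a pair of cysteines parted by another residue. CXCL1, CXCL2 and CXCL3 carry a glutamate-leucine-arginine motif before the cysteines and attract neutrophils through CXCR2. CXCL9 and CXCL10 are induced by interferons and attract activated T cells and natural killer cells through CXCR3. CXCL12, CXCL13 and CXCL14 are largely made by stromal or epithelial cells at rest: CXCL12 retains progenitors through CXCR4 and CXCL13 draws B cells through CXCR5. CXCL16 is made as a transmembrane protein, is released by the protease ADAM10, and is bound by CXCR6. In the thymus, CXCL12 guides early progenitors, and dendritic cells are a known source of CXCR3 ligands.

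The 4 promoters that matched an NF-kB motif are shown first, with the Cxcl9 promoter beside them because Cxcl9 shares a receptor with Cxcl10. They were chosen with the fold changes known: the 4 ligands were higher after TBI and Cxcl9 was lower. Cxcl12 and Cxcl13 were higher as well and held no match, and their windows are not shown. NF-kB is a transcription factor activated by Toll-like receptors, interleukin-1 and tumour necrosis factor. The windows cover 250 bases before to 50 bases after the annotated start (RefSeq, GRCm38.p6), are written 5′ to 3′ on the gene's strand, and 8 of the 9 ligands matched the table, Cxcl16 being the exception. Capitals mark matches, on either strand, to the NF-kB consensus, to the interferon-stimulated response element (GAAA, any 2 bases, GAAA) and to the gamma-activated site (TTC, any 3 bases, GAA).
Cxcl1 promoter, chr5:90890995-90891294, plus strand: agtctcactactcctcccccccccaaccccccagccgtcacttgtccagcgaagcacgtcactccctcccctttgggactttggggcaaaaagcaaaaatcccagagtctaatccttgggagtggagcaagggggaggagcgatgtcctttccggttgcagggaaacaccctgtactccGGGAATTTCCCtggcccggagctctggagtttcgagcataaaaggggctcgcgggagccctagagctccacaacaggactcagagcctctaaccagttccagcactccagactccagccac
Cxcl2 promoter, chr5:90903649-90903948, plus strand: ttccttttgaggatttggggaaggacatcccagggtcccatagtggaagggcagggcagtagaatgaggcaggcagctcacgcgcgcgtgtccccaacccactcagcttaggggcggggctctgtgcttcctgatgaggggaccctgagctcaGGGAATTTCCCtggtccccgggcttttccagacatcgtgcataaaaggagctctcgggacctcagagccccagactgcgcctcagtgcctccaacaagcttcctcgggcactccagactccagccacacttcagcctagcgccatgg
Cxcl3 promoter, chr5:90785851-90786150, plus strand: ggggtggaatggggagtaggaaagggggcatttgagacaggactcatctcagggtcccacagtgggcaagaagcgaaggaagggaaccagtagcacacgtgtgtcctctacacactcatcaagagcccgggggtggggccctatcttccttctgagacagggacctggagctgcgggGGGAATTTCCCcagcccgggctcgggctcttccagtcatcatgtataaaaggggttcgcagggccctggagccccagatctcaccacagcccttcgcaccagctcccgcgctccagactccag
Cxcl10 promoter, chr5:92348840-92349139, minus strand: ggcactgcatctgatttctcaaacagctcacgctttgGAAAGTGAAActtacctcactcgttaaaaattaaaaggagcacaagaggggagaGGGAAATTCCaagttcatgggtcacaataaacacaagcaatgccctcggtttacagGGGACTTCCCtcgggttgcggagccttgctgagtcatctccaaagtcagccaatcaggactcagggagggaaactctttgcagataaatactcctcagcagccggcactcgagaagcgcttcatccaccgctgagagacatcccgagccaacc
Cxcl9 promoter, chr5:92328030-92328329, minus strand: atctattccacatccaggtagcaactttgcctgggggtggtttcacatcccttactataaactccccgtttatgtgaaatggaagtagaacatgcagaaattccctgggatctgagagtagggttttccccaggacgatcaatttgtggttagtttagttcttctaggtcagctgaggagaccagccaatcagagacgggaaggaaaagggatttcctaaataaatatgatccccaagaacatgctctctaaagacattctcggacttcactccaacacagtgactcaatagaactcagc

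Cxcl1, Cxcl2 and Cxcl3 held the same 10 letters, GGGAATTTCC, at -71 to -62, -97 to -88 and -73 to -64 from the start, with an overlapping match on the opposite strand. Cxcl10 held 2 different NF-kB matches, GGGAAATTCC at -159 to -150 and GGGACTTCCC at -103 to -94, and the interferon-stimulated element GAAAGTGAAA at -213 to -204. Cxcl9, Cxcl12 and Cxcl13 held none of these letters in their windows. Cxcl14 held the interferon-stimulated element GAAACAGAAA at -172 to -163 and the gamma-activated site TTCTGAGAA at -191 to -183. Of 32851 promoter windows of this length, 4.51% held an NF-kB match, 3.44% the interferon-stimulated element and 8.30% the gamma-activated site. A match is a description of the sequence and not a measured binding site, and its part in the changes after TBI was not tested.

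Library totals ran from 7549053 to 8428589 counts after TBI and from 7227000 to 7346330 in untreated cells, and 1 count was worth 0.124 to 0.145 CPM (counts scaled to library size with the trimmed mean of M-values, TMM). The second principal component (14.9% of the variance) set TBI replicate 1, at -48.8, against TBI replicates 2 and 3, at 34.5 and 21.6. Core dendritic cell markers summed to 41433 to 59482 CPM after TBI and 61058 to 62286 CPM in untreated cells, and 6 of 8 were lower, or 3 without TBI replicate 2 or either untreated library. Cd74, which was not called, and the MHC class II chains made up most of the core sum in every library. Flt3, at 36.9 ± 4.01 CPM after TBI and 328 ± 21.8 CPM in untreated cells, added little to it. Macrophage markers were higher for 11 of 12 members and summed to 10748 to 12137 CPM after TBI against 2037 to 2410 CPM in untreated cells. Natural killer cell markers were higher for 7 of 8 (996 to 1221 CPM after TBI, 123 to 126 CPM in untreated cells), and type 1 dendritic cell markers were lower for 7 of 8 (677 to 852 CPM after TBI, 3180 to 3321 CPM in untreated cells). Plasmacytoid dendritic cell markers were lower for 8 of 8 (439 to 549.9 CPM after TBI, 3324 to 3394 CPM in untreated cells). Type 2 dendritic cell markers were higher for 4 of 8 and lower for 0 (2982 to 3540 CPM after TBI, 1209 to 1328 CPM in untreated cells). Mature CCR7 dendritic cell markers were higher for 2 of 10 and lower for 4 (3887 to 4262 CPM after TBI, 2722 to 3252 CPM in untreated cells). Cd83, called higher, made up most of that sum in every library. Monocyte markers were higher for 5 of 10 and lower for 3, or 1 without either untreated library, and summed to 31686 to 36761 CPM after TBI against 3821 to 4389 CPM in untreated cells. Over all tested genes 13.3% were higher and 9.79% lower. Lyz2 made up most of the monocyte sum after TBI (31790, 27132 and 23965 CPM, against 2161 and 1683 CPM in untreated cells). The 3 lower monocyte markers were Ly6c2, Plac8 and Treml4. Itgam was counted in both the monocyte and the type 2 dendritic cell list. None of the members of these lists was at 0 counts in a whole group. Because these are bulk libraries, fewer cells of a type and less RNA per cell cannot be told apart.

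After TBI, 6 of the 9 ligands rose (Cxcl1, Cxcl2, Cxcl3, Cxcl10, Cxcl12 and Cxcl13), 2 fell (Cxcl9 and Cxcl16), and Cxcl14 had too few counts to be tested. Calls are edgeR quasi-likelihood tests at a Benjamini-Hochberg adjusted p of 0.05 over 12046 genes, of which 23.1% were called, 13.3% higher and 9.79% lower in TBI libraries. Across the whole tested table the log2 fold changes had a median of -0.01. Cxcl1, Cxcl3, Cxcl12 and Cxcl13 had few untreated counts and passed the low-count filter through their TBI libraries, so the count of called ligands is a description. The groups did not overlap for any of the 9 ligands, as for 56.1% of all tested genes, 27.8% higher and 28.3% lower in TBI libraries.

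**Figure D1:**
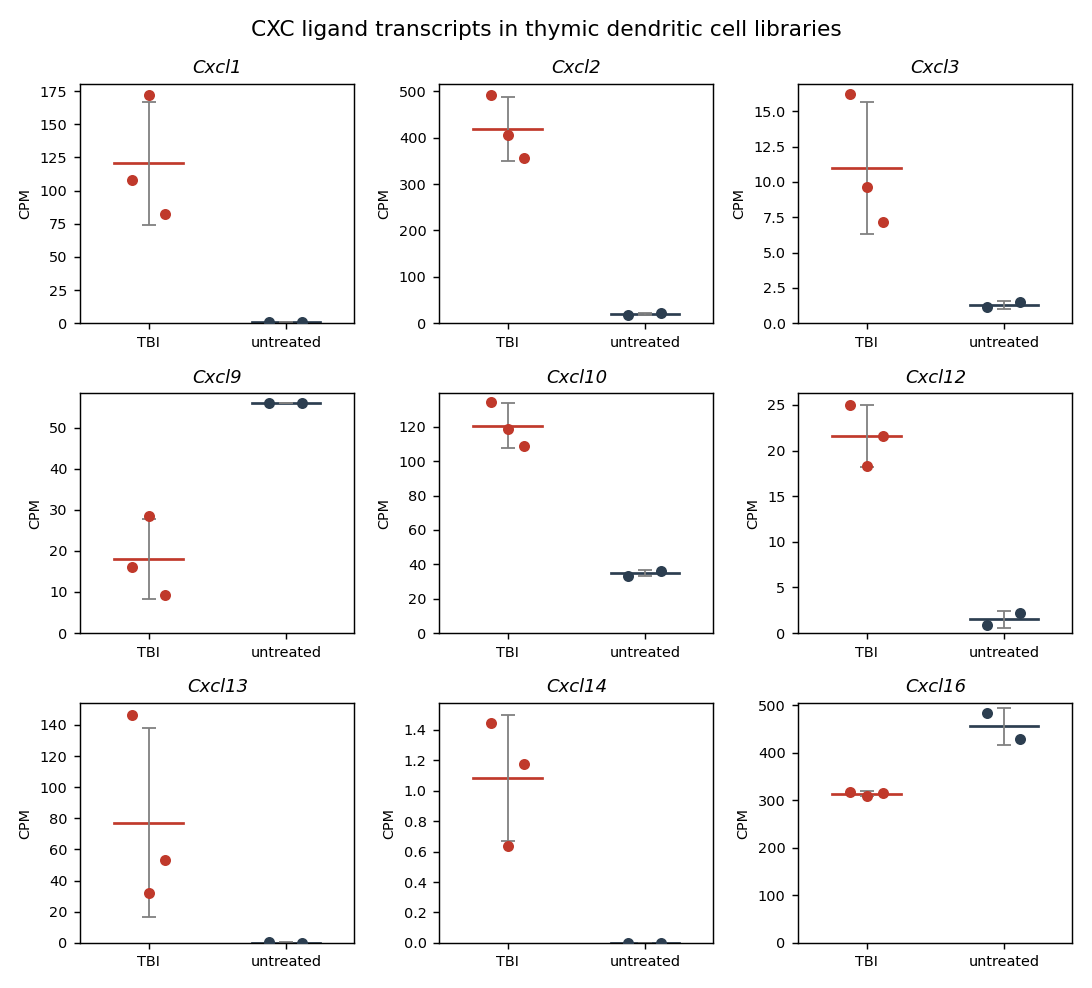
CPM of each CXC ligand (y axis, linear, its own range in each panel) in 3 TBI and 2 untreated libraries. Points are libraries, coloured lines are group means and grey bars are SD; TBI points lie above the untreated points in 7 panels and below them for Cxcl9 and Cxcl16.

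All 3 neutrophil-attracting ligands among the 9 were called higher, Cxcl3 with a limit given below. Cxcl2 stood at 493, 405 and 356 CPM in TBI replicates 1, 2 and 3, against 18.3 and 22.0 CPM in untreated replicates 1 and 2. All TBI libraries were far above both untreated ones, and their own spread was small beside that gap. The log2 fold change of Cxcl2 was 4.37 ± 0.21 (SE; edgeR adjusted p = 6.37e-06), with means of 418 ± 69.2 CPM after TBI and 20.2 ± 2.64 CPM in untreated cells (SD, n = 3 and n = 2).

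Cxcl1 had 108, 172 and 82.0 CPM after TBI, against 0.988 and 0.633 CPM in untreated cells, which rest on 8 and 5 counts. It was near the limit of detection in untreated cells and clearly present in every TBI library, highest in TBI replicate 2. Its log2 fold change was 7.19 ± 0.48 (edgeR adjusted p = 2.66e-05). Cxcl3, the lowest of these paralogs per length after TBI, had 16.2, 9.63 and 7.19 CPM after TBI against 1.11 and 1.52 CPM in untreated cells (log2 fold change 3.05 ± 0.50, edgeR adjusted p = 0.00303).

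Cxcl1 and Cxcl2 did not keep a fixed proportion. There were 0.219, 0.425 and 0.230 Cxcl1 counts per Cxcl2 count in TBI replicates 1 to 3, against 0.0541 and 0.0287 in untreated cells. This ratio was higher in every TBI library. An exact permutation test over the libraries, 2-sided by doubling the smaller tail, gave p = 0.2 (adjusted p = 0.2 over 2 ratios). That is the smallest value this form of the test can give with 3 and 2 libraries. Both ratios were chosen after the values were seen, so the test decides nothing. Cxcl2 and Cxcl3 are near-identical over part of their transcripts: 5.84% of the 50-base stretches of Cxcl2 also occur in Cxcl3, and 3.51% of those of Cxcl3 occur in Cxcl2. The handling of such reads is not given, and Cxcl2 had far more counts than Cxcl3 in every library. Both the level and the rise of Cxcl3 are therefore uncertain. Cxcl1 shared no 50-base stretch with another CXC ligand analysed here.

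Genes of the NF-kB pathway that passed the test were all higher. Of 16 NF-kB inducers and feedback genes, 9 rose, 0 fell and 7 did not pass, where 13.3% of all tested genes rose; their median was 0.62 on the log2 scale. Among them Tlr2 and Tlr4, receptors for bacterial lipoproteins and lipopolysaccharide, rose, Tlr2 to 374 ± 66.0 CPM after TBI, against 93.6 ± 11.8 CPM in untreated cells. Tlr4, with a log2 fold change of 2.64 ± 0.28, stood at 33.4, 37.5 and 53.5 CPM after TBI, against 6.55 and 6.71 CPM in untreated cells. Nfkbia, which encodes the inhibitor of NF-kB and is itself an NF-kB target, rose by 0.99 ± 0.13, and Nfkbiz, a nuclear cofactor of NF-kB, by 1.28 ± 0.18 on the log2 scale. The 7 that did not pass included the NF-kB subunit genes Nfkb1 (-0.29), Nfkb2 (-0.05), Rela (0.30), Rel (-0.19) and Relb (-0.07). The others were Tnfaip3 (0.03) and Il1r1 (-0.71 on the log2 scale). The count of higher genes was 5 without untreated replicate 1, and 1 gene was lower without TBI replicate 1 or with library size alone.

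Immediate-early and dissociation stress genes, which tissue digestion can also induce together with Cxcl1 and Cxcl2, were higher for 9 of 16 members and lower for 0. The shares over all tested genes were 13.3% higher and 9.79% lower. The summed level of the stress genes was 11107 to 14122 CPM after TBI and 8054 to 9706 CPM in untreated cells. None of them was at 0 counts in a whole group. Without untreated replicate 1 the list had 7 higher and 2 lower members. Neutrophil markers summed to 537, 210 and 252 CPM in TBI replicates 1 to 3 and to 49.9 and 426 CPM in untreated replicates 1 and 2, so these groups overlapped. Of 9 neutrophil markers with a row, 2 were higher and 1 lower, where 23.1% of all tested genes were called in either direction. The lower one was Mpo, with 67 and 872 counts in untreated replicates 1 and 2. Elane, not tested, had 0 and 216 counts there, so both rest mostly on untreated replicate 2. Mpo and Elane were at 0 in every TBI library. Without TBI replicate 2 or 3 there was 1 higher neutrophil marker, and 0 without untreated replicate 1. The part of these genes in the rise of Cxcl1, Cxcl2 and Cxcl3 was not tested.

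The interferon-induced ligands moved in opposite directions. Cxcl10 stood at 134, 119 and 109 CPM after TBI, against 33.5 and 36.1 CPM in untreated cells. The groups were well apart and the libraries within each group were close together. The log2 fold change was 1.79 ± 0.17 (edgeR adjusted p = 0.000140). Cxcl10 shares 133 exonic bases with Art3 on the opposite strand, and Art3 held 0 to 1 count in each TBI library and 1 to 3 in each untreated library.

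Cxcl9 had 16.1, 28.5 and 9.28 CPM after TBI, against 56.0 and 56.0 CPM in untreated cells. Untreated libraries were nearly equal, and all TBI libraries lay below them, with TBI replicate 2 the highest. The log2 fold change was -1.64 ± 0.38 (edgeR adjusted p = 0.0169). The call was lost without either untreated library (adjusted p = 0.0669 and 0.0684; range over all alternatives 0.000500 to 0.0684), where the log2 fold change stayed at -1.64.

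Within a library the balance of these genes turned over. There were 0.119, 0.240 and 0.0854 Cxcl9 counts per Cxcl10 count after TBI, against 1.67 and 1.55 in untreated cells. Cxcl9 was the lower of the pair in every TBI library and the higher in both untreated ones, by counts and per length. This ratio does not depend on library scaling. The same exact permutation test gave p = 0.2, the smallest value its form can give (adjusted p = 0.2 over 2 ratios, both chosen after the values were seen). Cxcl11, the third CXCR3 ligand, was too scarce to test, with 2, 7 and 2 counts after TBI against 0 and 1 in untreated cells, a count ratio of 7.84 (95% exact counting interval 1.14 to 337).

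Of 14 members of the interferon induction axis 1 rose, 4 fell, 8 did not pass and 1 was not tested; the median over those tested was -0.35 on the log2 scale. Over all tested genes 13.3% were higher and 9.79% lower. Jak2, a kinase of the interferon-gamma receptor, had 91.7, 121 and 102 CPM after TBI, against 203 and 193 CPM in untreated cells. It was lower in every TBI library and fell by 0.92 on the log2 scale (SE 0.15), and Tyk2, a kinase of the type I interferon receptor, fell by 0.61 (SE 0.18), a call lost in 3 of 14 alternatives. Ifngr1, a chain of the interferon-gamma receptor, rose by 0.66 ± 0.12, a call lost in 1 of 14. Ifng itself, named here after its values were seen, had 31, 26 and 107 counts after TBI against 11 and 20 in untreated cells and did not pass (log2 fold change 1.89 ± 0.72, edgeR adjusted p = 0.0951).

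These counts moved with single libraries. The axis had 0 higher and 1 lower member when untreated replicate 1 was left out, 1 and 2 when untreated replicate 2 was, and 3 and 5 when TBI replicate 1 was. With library size alone, which shifts the median of all genes to -0.23, 1 was higher and 7 were lower. The type 1 and plasmacytoid dendritic cell sums given above were lower in the same libraries in which Cxcl9 was lower. The type 2 and mature dendritic cell, macrophage and monocyte sums were higher there. Cd83 made up most of the mature sum (3099, 3041 and 2883 CPM after TBI, 1848 and 1833 CPM in untreated cells). Of the 10 mature markers 2 were called higher and 4 lower, so this sum does not stand for the list. The part of dendritic cells, macrophages and monocytes in the fall of Cxcl9 was not tested.

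The ligands that stromal cells are known to make were almost absent from untreated libraries. Cxcl13 had 147, 31.9 and 53.4 CPM after TBI, against 0.247 and 0.127 CPM in untreated cells, which rest on 2 counts and 1 count. TBI libraries differed widely among themselves, with replicate 1 above the others, yet all were far above the untreated ones. The ratio of counts was 397 (95% exact counting interval 136 to 1929). The fitted log2 fold change was 8.56 ± 1.04 (edgeR adjusted p = 0.000632) and was 7.71 without TBI replicate 1. limma-voom did not call Cxcl13 (adjusted p = 0.138; range over all alternatives 2.78e-11 to 0.138).

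Cxcl12 had 173, 144 and 165 counts after TBI, against 7 and 17 counts in untreated cells, or 21.6 ± 3.39 CPM after TBI and 1.51 ± 0.910 CPM in untreated cells. It was low in both groups, and the TBI libraries were close together. The log2 fold change was 3.83 ± 0.41 (edgeR adjusted p = 0.000293), and 4.62 without untreated replicate 2. Cxcl14 had 10, 5 and 9 counts after TBI and 0 in both untreated libraries, at least 2.89-fold higher against a floor of 3 counts per untreated library. It did not pass the low-count filter, and without that filter its adjusted p was 0.0578.

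Mesenchymal markers were counted in the same libraries, although sorting for CD45 should leave such cells out. Of 8 members 5 were higher, 0 lower, 2 did not pass and 1 was not tested, where 13.3% of all tested genes were higher and 9.79% lower. The 5 higher ones, Col1a1, Col1a2, Col3a1, Dcn and Lum, had 0 to 10 counts in each untreated library. These 5 passed the low-count filter through their TBI libraries, so their number is a description. All 8 members summed to 281, 35.2 and 124 CPM in TBI replicates 1 to 3, against 4.94 and 2.41 CPM in untreated cells. TBI replicate 1 was the highest and TBI replicate 2 the lowest of the TBI libraries in this sum and in each of Cxcl12, Cxcl13 and Cxcl14. The members did not share 1 order: Col3a1, Dcn, Lum and Fbln1 were highest in TBI replicate 1, but Col1a1, Col1a2 and Pdgfrb in TBI replicate 3. Dcn, the proteoglycan decorin, made up most of the sum in TBI replicate 1 (187, 14.8 and 67.1 CPM after TBI, 1.24 and 0.380 CPM in untreated cells). Pdgfra was at 0 counts in all 5 libraries, and Col1a2 was at 0 in both untreated ones. With limma-voom 2 mesenchymal markers were higher. Endothelial markers summed to 32.1 to 57.8 CPM after TBI and 149 to 169 CPM in untreated cells, with 0 higher and 3 lower of 8, or 5 lower with the replicate number as a block, and Tek and Emcn at 0 in all 5 libraries. Thymic epithelial markers summed to 31.8 to 38.6 CPM after TBI and 79.8 to 86.6 CPM in untreated cells, with 0 higher and 2 lower of 8, or 1 lower without TBI replicate 2 or 3 or either untreated library. The part of these cells in the rise of these ligands was not tested.

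Lymphotoxin signals induce CXCL13 in lymphoid stroma. Of 7 genes of this axis 2 rose, 0 fell and 5 did not pass; their median was 0.13 on the log2 scale. This share is near the 23.1% called over all tested genes and is no result about the axis. Ltbr, the lymphotoxin beta receptor, rose by 0.72 ± 0.19 and Tnfsf14, its ligand LIGHT, by 1.63 ± 0.38 on the log2 scale. Neither held in all alternatives: Ltbr was not called in 5 of 14 and Tnfsf14 in 2 of 14, and 0 genes of the axis were called without untreated replicate 1. Without untreated replicate 2 or TBI replicate 2 or 3, 1 was called, and without TBI replicate 1, 2 were higher and 1 was lower.

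Cxcl16 was the most abundant of the 9 in untreated cells and fell modestly. It had 318, 308 and 316 CPM after TBI, against 484 and 429 CPM in untreated cells. TBI libraries were nearly equal, and all lay below the untreated ones. The log2 fold change was -0.54 ± 0.12 (edgeR adjusted p = 0.0136). The call was lost without TBI replicate 2 (adjusted p = 0.0558) and without untreated replicate 1 (0.212) or 2 (0.0790), in a range over all alternatives of 0.000416 to 0.212.

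Zmynd15 lies on the opposite strand and shares 552 exonic bases with Cxcl16, 18.3% of the Cxcl16 exons. It had 124, 103 and 152 counts after TBI against 753 and 522 in untreated cells, and fell by 2.23 on the log2 scale (SE 0.24). Whether counting used strand is not given, so reads of the shared stretch cannot be told apart, and the part of Zmynd15 in the fall of Cxcl16 was not tested.

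Of the 8 genes for proteases that shed or trim CXC ligands, 3 rose, 1 fell and 4 did not pass. Over all tested genes 13.3% rose and 9.79% fell. Adam10, which releases CXCL16 from the membrane, had 158, 276 and 252 CPM after TBI, against 95.1 and 106 CPM in untreated cells. Its log2 fold change was 1.19 ± 0.24 (edgeR adjusted p = 0.00787), while the call was lost without untreated replicate 1. Mmp9, a gelatinase of myeloid cells, rose by 5.31 ± 0.32 and Mmp12, the macrophage elastase, by 2.62 ± 0.51, or 1.96 without TBI replicate 2. Dpp4, which removes the first residues of CXCL9, CXCL10 and CXCL12, fell by 0.75 (SE 0.14) and was not called without untreated replicate 2.

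The make-up of the ligand counts shifted. The 9 genes summed to 1259, 1093 and 956 CPM after TBI, against 595 and 547 CPM in untreated cells. Cxcl16 took 25.3% (95% exact binomial interval 24.4 to 26.2), 28.2% (27.2 to 29.2) and 33.1% (32.0 to 34.2) of these counts in TBI replicates 1 to 3. In untreated replicates 1 and 2 it took 81.3% (80.2 to 82.4) and 78.3% (77.1 to 79.6). Cxcl16 was thus the main ligand by counts in untreated cells, but not after TBI. Cxcl2 took 39.2% (38.1 to 40.2), 37.1% (36.0 to 38.1) and 37.3% (36.2 to 38.4) after TBI, against 3.08% (2.61 to 3.60) and 4.02% (3.46 to 4.65) in untreated cells. These intervals cover counting error only, since the libraries carry no molecular identifiers.

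**Figure D2:**
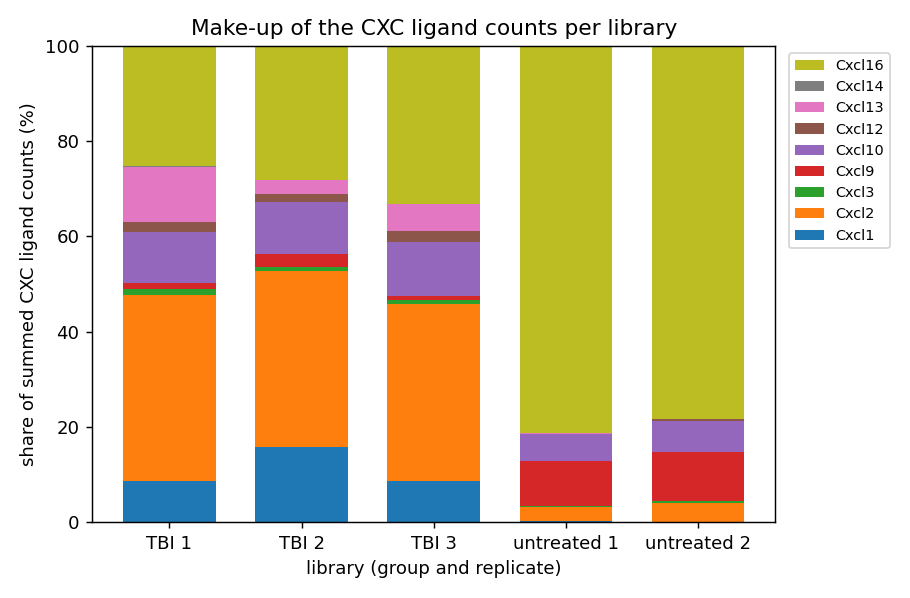
Share of the summed counts of the 9 CXC ligands held by each gene (y axis, %) in each TBI and untreated library (x axis). Cxcl16 holds 78.3% to 81.3% in untreated libraries and 25.3% to 33.1% in TBI libraries, where Cxcl2 holds 37.1% to 39.2%.

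Levels of different genes were compared per length, as CPM per kilobase (kb) of the exons of each gene model. After TBI Cxcl2 led with 172 to 238 CPM per kb, followed by Cxcl16 with 102 to 105. Cxcl1 (43.7 to 91.7), Cxcl10 (48.3 to 59.7) and Cxcl13 (27.8 to 127 CPM per kb) came next, and Cxcl10 overlapped in range with both of its neighbours in this order. Cxcl9 (3.08 to 9.46), Cxcl3 (2.06 to 4.63) and Cxcl12 (2.23 to 3.06 CPM per kb) followed, below and apart from Cxcl13, with Cxcl3 overlapping both of the others. Cxcl14 was the lowest (0.347 to 0.792) and apart from Cxcl12. In untreated cells the order began with Cxcl16 at 142 to 160, then Cxcl9 at 18.6 in both libraries, Cxcl10 at 14.9 to 16.0 and Cxcl2 at 8.84 to 10.7 CPM per kb. The ranges of these 4 did not overlap. The other 5 ligands stood at 0 to 0.527 CPM per kb there, where Cxcl1 overlapped with Cxcl3, and Cxcl12 with Cxcl13. The Cxcl12 model joins the exons of all its isoforms, 8.176 kb in all, which lowers its value on this scale.

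**Figure D3:**
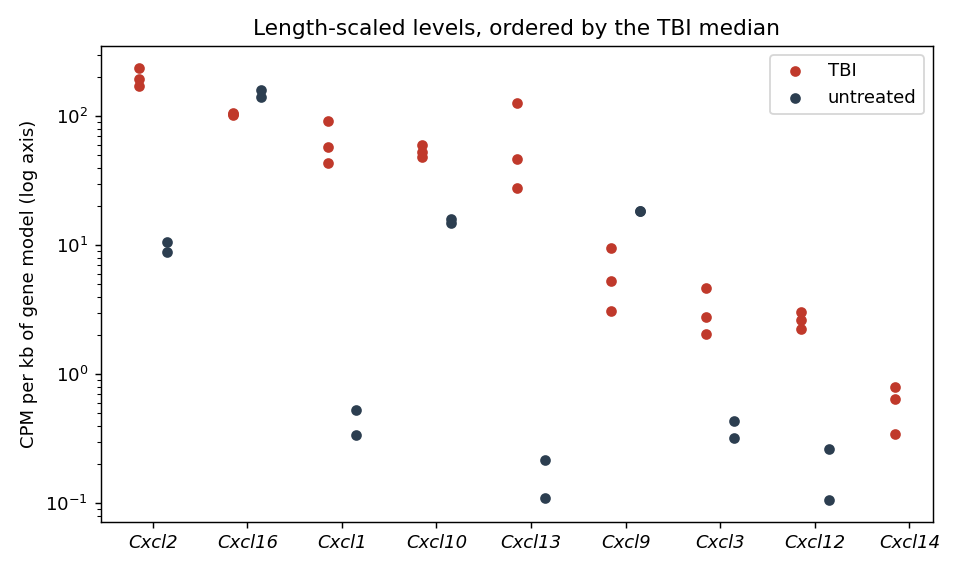
CPM per kb of gene model (y axis, log scale) of each ligand, ordered by the TBI median, in 3 TBI (red) and 2 untreated (dark) libraries, each point being a library. Cxcl2 leads after TBI and Cxcl16 in untreated cells; values of 0 (Cxcl14 in untreated cells) cannot be drawn on a log axis.

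Among 6 further CXC ligand genes, the platelet factor 4 gene Pf4 (Cxcl4), made by megakaryocytes and some macrophages, rose most. It stood at 602, 450.0 and 474 CPM after TBI, against 7.66 and 6.20 CPM in untreated cells, a log2 fold change of 6.19 ± 0.23 (edgeR adjusted p = 3.01e-06). On the length scale Pf4 had 624 to 835 CPM per kb after TBI, above each of the 9 ligands in the same libraries. Ppbp (Cxcl7), the neutrophil-attracting ligand of platelets, rose by 2.52 ± 0.71 (edgeR adjusted p = 0.0351), with 14.5, 3.93 and 4.45 CPM after TBI and 1.48 and 1.14 CPM in untreated cells. The Ppbp call was lost in 3 of 14 alternatives, and leaving out TBI replicate 1 gave 1.66. Cxcl5 had 2 counts in all, Cxcl17 had 0 counts in all 5 libraries, and Cxcl15 was not analysed here.

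Of 8 CXC receptor genes 4 rose, 0 fell, 2 did not pass and 2 (Cxcr1 and Ackr1, with 2 counts and 1 count in all) were not tested. Over all tested genes 13.3% were higher and 9.79% lower. Cxcr6, the receptor of CXCL16, had 91.9, 97.7 and 90.6 CPM after TBI, against 5.68 and 8.10 CPM in untreated cells. It was higher in every TBI library, whereas its ligand transcript was lower (Cxcr6 log2 fold change 3.76 ± 0.22, edgeR adjusted p = 1.48e-05). Cxcr5, the receptor of CXCL13, rose by 2.61 ± 0.27 (57.4 ± 11.2 CPM after TBI, 9.36 ± 2.32 CPM in untreated cells). Ackr3, a scavenging receptor of CXCL12, rose by 5.62 ± 0.52, with 445, 267 and 326 counts after TBI and 12 and 3 in untreated cells. It passed the low-count filter through its TBI libraries, and its log2 fold change was 6.89 and 4.97 without untreated replicate 1 or 2.

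Cxcr4, the signalling receptor of CXCL12, changed least among the called receptors, with a log2 fold change of 0.60 ± 0.18 (edgeR adjusted p = 0.0419), and was not called in 8 of 14 alternatives. Cxcr3, the receptor of CXCL9 and CXCL10, had 31.0, 18.0 and 22.8 CPM after TBI against 39.5 and 43.4 CPM in untreated cells. It did not pass (log2 fold change -0.80 ± 0.25, edgeR adjusted p = 0.0512) but was called lower in 7 of 14 alternatives, with adjusted p between 0.00330 and 0.296 over all of them. Cxcr2, the receptor of CXCL1 to CXCL3, had 10.7 ± 2.29 CPM after TBI and 5.51 ± 0.448 CPM in untreated cells and did not pass (log2 fold change 0.96 ± 0.32, edgeR adjusted p = 0.0644). It was called higher without TBI replicate 1. T cell markers were higher for 1 of 10 and lower for 5 (1426 to 1604 CPM after TBI, 2367 to 2602 CPM in untreated cells), with 0 higher without TBI replicate 3 or either untreated library, and with library size alone. B cell markers were higher for 5 of 7 and lower for 1 (250 to 387 CPM after TBI, 73.4 to 94.3 CPM in untreated cells), with 0 lower without TBI replicate 2 or either untreated library, and Pax5 at 0 in untreated cells. For both marker lists, the shares over all tested genes were 13.3% higher and 9.79% lower. The part of T cells, B cells and natural killer cells in the receptor values was not tested.

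**Figure D4:**
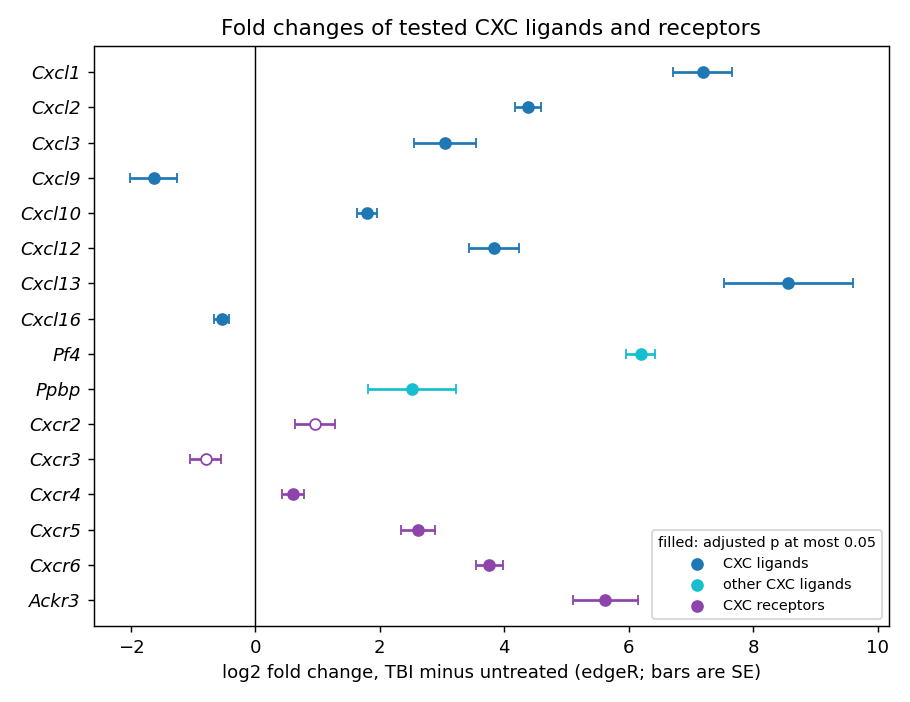
Log2 fold change, TBI minus untreated (x axis), of the 8 tested CXC ligands, 2 other CXC ligands and 6 receptors; bars are SE and filled points passed an adjusted p of 0.05. Cxcl9 and Cxcl16 lie below 0 among the ligands, and Cxcr2 and Cxcr3 are the open points.

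Cxcl16 and Cxcl2 were the most abundant of the 9 ligands by mean CPM over the 5 libraries. Genes with the closest profiles to them were found by the root mean square distance between log2 profiles centred on each gene's mean. For Cxcl16 these were Aif1 (0.0312), Hebp1 (0.0355) and Akr7a5 (0.0358 log2 units). Aif1, the calcium-binding protein IBA1 of myeloid cells, had 158, 152 and 152 CPM after TBI, against 226 and 209 CPM in untreated cells. For Cxcl2 they were Klrc1 (0.111), Tppp3 (0.142) and Cd14 (0.165 log2 units). Klrc1, a natural killer cell receptor, had 45.3, 34.9 and 34.7 CPM after TBI, against 1.24 and 1.27 CPM in untreated cells, and Cd14, the lipopolysaccharide co-receptor, had 3388, 3487 and 2567 CPM after TBI, against 171 and 197 CPM in untreated cells. These distances rest on 5 libraries and are dominated by the difference between groups.

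In GRCm38, 6 of the 9 genes lie on chromosome 5. Cxcl3 (90786103 to 90789600), Cxcl1 (90891241 to 90893115) and Cxcl2 (90903871 to 90905938) lie close together on the plus strand, and Pf4 (90772435 to 90773383) and Ppbp (90768518 to 90770063) lie beside them. Cxcl9 (92321347 to 92328079) and Cxcl10 (92346638 to 92348889) are neighbours on the minus strand and moved in opposite directions. Cxcl13 lies farther along (95956951 to 95961068). Cxcl12 is on chromosome 6 (117168535 to 117181367), Cxcl14 on chromosome 13 (56288643 to 56296551) and Cxcl16 on chromosome 11 (70453983 to 70459984).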

How the data were processed

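Bulk RNA libraries were made with a SMART-Seq v4 kit, per the labels. Alignment to mm10 used STAR 2.5.2a and gene assignment Subread featureCounts 1.6.0, with edgeR after that, per the submitters' processing notes. The deposited file holds raw whole-number counts per gene symbol (18051 rows, 1476 of them without a count, and 0 columns of other samples). Annotation, strand setting and handling of multiply mapped reads are not given in the sources used here. Titles and treatment tags give day 4, although a treatment note names another day.

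Tests used edgeR 4.0.16 in R 4.3.3 (TMM, filterByExpr with minimum count 10 and minimum total 15, quasi-likelihood F-test, group as the only term, Benjamini-Hochberg adjustment over 12046 genes at 0.05). Fold changes are on the log2 scale, TBI over untreated, with SE. The chi-square per gene, 1 for counting error alone, was at least 4.90 between replicates, so no library was a copy. Intervals are 95%, and floors of 3 counts cover counting error only. Gene models came from GENCODE vM21 and promoters from RefSeq, matched by symbol; protein sequences were not used here. Alternatives were DESeq2 1.42.0 size factors and Wald test, upper quartile scaling, library size alone, no or a stricter filter (1 CPM in 3 libraries, 100 counts), limma-voom (limma 3.58.1), robust shrinkage, a block for the replicate number, and leaving out each library. Functions were tested on simulated counts. Python 3.11.15, scipy 1.17.1 and matplotlib 3.10.9 served for intervals, permutation tests and figures.

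The members, gene lists and rules were chosen with earlier results of these data known. Named genes were the 9 ligands, all other CXC ligands and receptors listed, and up to 4 called members with the smallest p of each other pathway list. The 3 closest profiles (log2 of CPM plus 0.5) to each of the 2 most abundant of the 9 ligands were also named under this rule. Dendritic cell, monocyte, neutrophil, mesenchymal, overlapping and uncalled NF-kB genes named beyond this rule were chosen after their values were seen. A gene that this rule names is not reported here.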

Additional observations from a re-analysis of the deposited data

How the results depend on the processing

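No ligand changed direction in any of the 14 alternatives, and 106 of 112 recomputed values for the 8 tested ligands kept their side of the threshold. limma-voom gave Cxcl13 a log2 fold change of 8.00 that was not called, which left 5 ligands called higher. With a library left out, log2 fold changes ran from -2.15 to -1.32 for Cxcl9 and from -0.62 to -0.45 for Cxcl16, ligands called lower numbered 0 to 2, ligands called higher 6 in each case, and all genes called 1233 to 3928. Leaving out an untreated library leaves 1, whose spread is then taken from the TBI group, and calls over all genes fell as well. Library size alone moved the median of all tested genes to -0.23 and the share of calls that were higher to 36.8%, against 57.6% with TMM. The replicate numbers share a number only: deviations of same-numbered libraries correlated at -0.0160 and -0.00989 over genes, and with the replicate block 2777 genes, 6 higher and 2 lower ligands were called, against 2778, 6 and 2 without it. Depth limits Cxcl14, Cxcl11 and the untreated levels of Cxcl1, Cxcl12 and Cxcl13.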
